A study of Homo sapiens with 12 samples.

Results

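SELE, VCAM1 and ICAM1 encode the adhesion receptors E-selectin, VCAM1 and ICAM1, and this section describes their transcripts in PANC-1, a human cell line from a pancreatic ductal adenocarcinoma. They were selected on their CPM with and without tumour necrosis factor (TNF) in these libraries, as adhesion genes typical of endothelium that TNF induced, and they are 3 of the 60669 Ensembl identifiers counted and 3 of the 16695 genes that passed the filter on low counts. Because the selection used their TNF response, that response is given as a description with no test. Tests are given only for the difference between the siRNAs, and they draw on the same libraries, so they are not independent of the selection.

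E-selectin is a lectin that binds sialylated, fucosylated glycans on leukocytes and lets them roll along a stimulated vessel wall. VCAM1 and ICAM1 are immunoglobulin-family receptors that arrest these cells, VCAM1 through the integrin α4β1 and ICAM1 through the leukocyte integrins LFA-1 and Mac-1. In endothelium TNF switches on all of these genes through NF-κB, a transcription factor released when IκB kinase marks its inhibitor for destruction. ICAM1 is also carried by many epithelial tumour cells, where it gives cytotoxic lymphocytes a hold on their target.

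The study asked about SIK3, a salt-inducible kinase, in tumour resistance to attack by immune cells. Wild-type PANC-1 cells received for 72 h either an siRNA against SIK3 or a control siRNA, and were left unstimulated or given recombinant human TNF-α at 100 ng/mL for 30 min or 4 h. Total RNA was sequenced from 12 libraries, 2 biological replicates in each of 6 groups. The design text names 1 siRNA against the target, which the titles call AS1 and the sample characteristics call SIK3.

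The names of the deposited libraries and their titles give different conditions for 8 of the 12 libraries and the same condition for 4. Both namings divide the libraries into the same 6 pairs. Conditions below are the words in the library names: SIK3 for the SIK3 siRNA, Scr1 for the control siRNA, 30 min and 4 h for TNF, and CLM, which was read as unstimulated by elimination. By title, the libraries named SIK3 CLM are SIK3 siRNA with TNF for 30 min, those named SIK3 30 min are control siRNA with TNF for 4 h, and those named SIK3 4 h are the same under both. By title, those named control 30 min are unstimulated SIK3 siRNA, those named control 4 h are control siRNA with TNF for 30 min, and those named control CLM are the same under both. SIK3 mRNA, the target, lay between 16.3 and 24.0 CPM (counts scaled to library size) in the 6 libraries named SIK3 and between 34.3 and 68.7 CPM in the 6 named control, without overlap. By title, the SIK3 siRNA libraries ran from 16.3 to 68.7 CPM and the control siRNA libraries from 17.3 to 65.2 CPM. The fitted level was 2.45-, 2.69- and 2.42-fold lower with SIK3 siRNA without TNF, at 30 min and at 4 h (edgeR adjusted p = 0.0231, 0.0146 and 0.0244).

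Gene counts totalled 13535825 to 22699756 per library. Both SIK3 4 h libraries stood apart in reads that fell in no annotated gene, at 16.5% and 17.1% of reads against 8.35% to 10.5% in the other 10 libraries. Reads mapping to several places ran from 4.94% to 17.6% in replicate 1. In replicate 2 they made up 10.2% in the SIK3 4 h library and 27.8% to 45.3% in the other 5 libraries. The endothelial label of the 3 genes did not extend to the cells: PECAM1 had at most 3 counts and VWF at most 2 in any library, TEK and EMCN had none, and only EGFL7 of 15 endothelial markers averaged at least 1 CPM over the 12 libraries. PTPRC, the pan-leukocyte marker, had at most 1 count, and 9 of 10 epithelial and ductal markers averaged at least 1 CPM. The summed endothelial markers lay between 10.6 and 10.95 CPM in the SIK3 4 h libraries and between 10.0 and 13.3 CPM in the control 4 h libraries. That sum is mostly EGFL7, at a mean of 8.60 CPM over the 12 libraries, and does not speak for the scarce markers. Of the 4 endothelial markers tested, 1 was called at 4 h: ESAM was lower with SIK3 siRNA (0.177 CPM) than with control siRNA (1.09 CPM). In bulk RNA, fewer cells that carry a transcript and less of it per cell cannot be told apart.

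SELE (ENSG00000007908) lies on the minus strand of chromosome 1 at 169722641 to 169764705, VCAM1 (ENSG00000162692) on the plus strand of the same chromosome at 100719742 to 100739045, and ICAM1 (ENSG00000090339) on the plus strand of chromosome 19 at 10270835 to 10286615 (GRCh38). The promoter windows of RefSeq (GRCh38.p14), 250 bases before to 50 after the transcription start, are shown because all 3 genes had their highest level at TNF 4 h in each siRNA arm and are known NF-κB targets. All 3 were found in the table, at chr1:169734030-169734329 (minus strand), chr1:100719492-100719791 (plus strand) and chr19:10270870-10271169 (plus strand). Capitals mark matches to GGNNNTTCC, the letters shared by many NF-κB sites, and to TATAA, the core of a TATA box, each on either strand.
SELE promoter: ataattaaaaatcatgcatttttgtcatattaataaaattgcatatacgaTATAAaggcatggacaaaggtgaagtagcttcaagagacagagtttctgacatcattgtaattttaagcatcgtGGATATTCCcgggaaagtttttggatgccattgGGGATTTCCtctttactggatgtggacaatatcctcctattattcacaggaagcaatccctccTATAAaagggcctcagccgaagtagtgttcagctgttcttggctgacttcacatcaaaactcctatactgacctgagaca
VCAM1 promoter: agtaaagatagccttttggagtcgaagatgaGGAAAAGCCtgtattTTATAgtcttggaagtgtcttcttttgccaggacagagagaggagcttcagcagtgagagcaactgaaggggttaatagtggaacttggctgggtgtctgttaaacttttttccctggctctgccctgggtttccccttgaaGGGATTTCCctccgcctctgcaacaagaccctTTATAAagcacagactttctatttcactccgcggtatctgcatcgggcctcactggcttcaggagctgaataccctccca
ICAM1 promoter: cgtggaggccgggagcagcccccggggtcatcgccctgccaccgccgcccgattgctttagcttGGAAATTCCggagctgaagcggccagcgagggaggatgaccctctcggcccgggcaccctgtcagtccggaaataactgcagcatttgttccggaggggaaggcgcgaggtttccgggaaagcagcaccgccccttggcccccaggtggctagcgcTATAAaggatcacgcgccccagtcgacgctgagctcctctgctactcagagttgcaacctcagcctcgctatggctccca
The SELE window held GGNNNTTCC at -126 to -118 and at -93 to -85, counted from the transcription start. The VCAM1 window held it at -219 to -211, on the minus strand, and at -62 to -54, and the ICAM1 window held it at -186 to -178. Each window also held TATAA starting at -30 or -29. The windows differ in what surrounds these letters: G and C made up 38.3% of the SELE window, 48.3% of the VCAM1 window and 64.7% of the ICAM1 window. TGANNTCA, letters shared by many AP-1 and CRE sites, was found at -153 to -146 and at 14 to 21 in SELE and not in the VCAM1 or ICAM1 window. Of 35116 promoter windows of the same length, 20.1% held GGNNNTTCC, 2.54% held it at least 2 times, 20.4% held TATAA and 11.5% held TGANNTCA. A longer NF-κB consensus was also searched and was held by 11.3% of all windows. The SELE and VCAM1 windows held 1 match to it each, and the ICAM1 window held 0. The letters were chosen after the windows were seen, and a match describes a sequence and not a bound site.

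**Figure D1:**
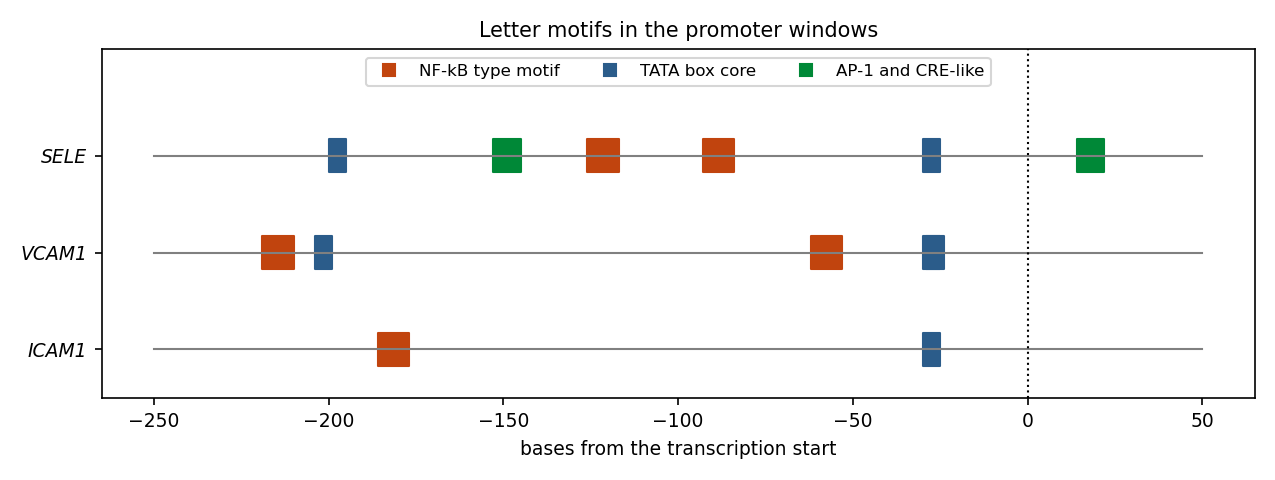
Positions of the motif matches in the promoter windows of SELE, VCAM1 and ICAM1, in bases from the transcription start (dotted line). SELE and VCAM1 each hold 2 matches to the NF-κB type motif (GGNNNTTCC) and ICAM1 holds 1, and a TATA box core lies just before each start.

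SELE had the widest range of the 3, from 5 counts in an unstimulated SIK3 siRNA library to 3705 in a control library at TNF 4 h. With SIK3 siRNA it had 9 and 5 counts (0.376 and 0.340 CPM) without TNF, 11 and 24 counts (0.560 and 1.18 CPM) at 30 min, and 102 and 93 counts (6.77 and 5.13 CPM) at 4 h. With control siRNA it had 36 and 32 counts (1.90 and 2.26 CPM) without TNF, 164 and 148 counts (8.996 and 7.93 CPM) at 30 min, and 3705 and 2202 counts (225 and 174 CPM) at 4 h. The control 4 h libraries stood far above the other 10, and both SIK3 siRNA libraries lay below both control libraries at each time. Ordered by mean CPM, the conditions ran SIK3 CLM, SIK3 30 min, control CLM, SIK3 4 h, control 30 min and control 4 h, and no neighbours in that order overlapped. SIK3 siRNA cells at TNF 4 h held less SELE mRNA than control cells at 30 min, at 5.95 ± 1.16 CPM against 8.46 ± 0.756 CPM (SD, n = 2 each).

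VCAM1 was the scarcest of the 3 and rested on few reads outside the control 4 h libraries. With SIK3 siRNA it had 3 and 3 counts (0.125 and 0.204 CPM) without TNF, 1 and 1 count (0.0509 and 0.0490 CPM) at 30 min, and 9 and 24 counts (0.597 and 1.32 CPM) at 4 h. With control siRNA it had 18 and 6 counts (0.952 and 0.424 CPM) without TNF, 5 and 5 counts (0.274 and 0.268 CPM) at 30 min, and 330 and 169 counts (20.0 and 13.4 CPM) at 4 h. It reached the level of the low-count filter, 0.545 CPM, in 5 of 12 libraries, whereas SELE did so in 10 and ICAM1 in all 12. In order of mean CPM, SIK3 30 min was lowest, then SIK3 CLM, control 30 min, control CLM, SIK3 4 h and control 4 h, and the libraries of control CLM and SIK3 4 h overlapped.

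ICAM1 was abundant in every library, in unstimulated cells too. With SIK3 siRNA it had 7838 and 5954 counts (328 and 405 CPM) without TNF, 4607 and 6345 counts (235 and 311 CPM) at 30 min, and 14184 and 23935 counts (942 and 1320 CPM) at 4 h. With control siRNA it had 6645 and 6001 counts (351 and 424 CPM) without TNF, 5489 and 7670 counts (301 and 411 CPM) at 30 min, and 39486 and 36844 counts (2397 and 2913 CPM) at 4 h. The 4 conditions without TNF or at 30 min overlapped with their neighbours in order, and SIK3 4 h and control 4 h stood above them in that order without overlap.

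**Figure D2:**
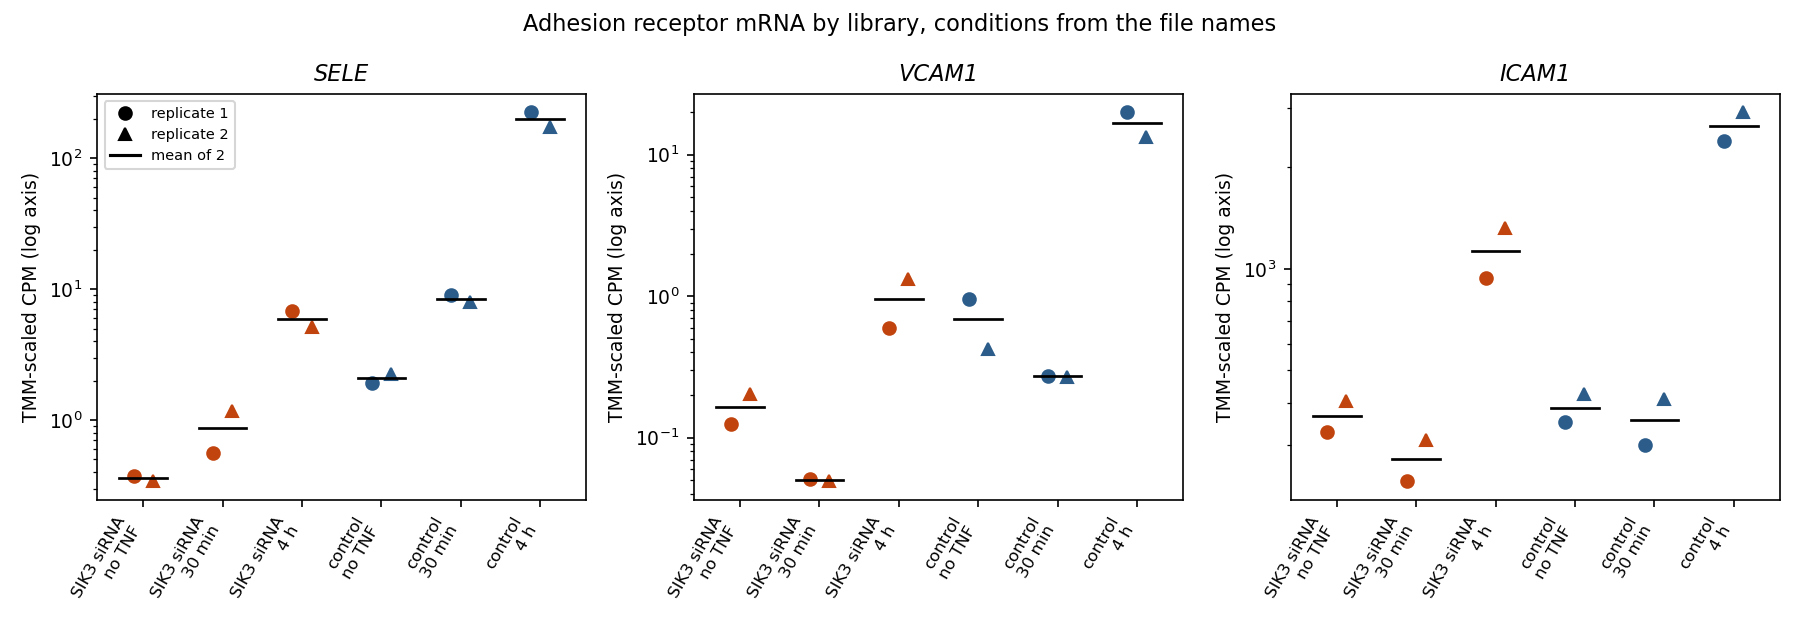
TMM-scaled CPM of SELE, VCAM1 and ICAM1 on log axes in each of the 12 libraries, by the condition words of the library names (points, replicates 1 and 2; lines, mean of 2). Control siRNA at TNF 4 h is the highest condition for each gene, at 199.5 CPM for SELE, 16.7 CPM for VCAM1 and 2655 CPM for ICAM1.

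Scaled by exon length, mean ICAM1 mRNA was above mean SELE mRNA in each of the 6 conditions, and SELE above VCAM1. At TNF 4 h the levels with SIK3 siRNA were 1.297 CPM per kb for SELE, 0.159 for VCAM1 and 305 for ICAM1, and those with control siRNA were 43.5 CPM per kb for SELE, 2.76 for VCAM1 and 716 for ICAM1. The ratio of ICAM1 to SELE per kb was 235 at TNF 4 h with SIK3 siRNA and 16.5 at TNF 4 h with control siRNA. Without TNF it was 1270 with SIK3 siRNA and 230 with control siRNA.

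The TNF response is the basis on which the 3 genes were chosen, and its fitted sizes are given without a test. After 4 h the fitted level relative to unstimulated cells was 16.1-fold for SELE, 6.05-fold for VCAM1 and 3.09-fold for ICAM1 with SIK3 siRNA. The corresponding values with control siRNA were 96.2-fold for SELE, 23.2-fold for VCAM1 and 6.85-fold for ICAM1. In both arms the order was SELE, VCAM1, ICAM1. The VCAM1 folds depend on single libraries: the log2 value of 2.60 with SIK3 siRNA, which rests on 6 unstimulated counts, was 1.88 without SIK3 4 h replicate 2, and that of 4.54 with control siRNA was 5.28 without control CLM replicate 1. After 30 min SELE was at 2.38-fold with SIK3 siRNA and 4.08-fold with control siRNA of its unstimulated level, while ICAM1 was at 0.745-fold and VCAM1 too scarce for a fold with SIK3 siRNA. With control siRNA ICAM1 was at 0.918-fold and VCAM1 at 0.386-fold at 30 min, and that VCAM1 value rests on 10 counts at 30 min against 24 unstimulated. The log2 value of VCAM1 at 30 min with control siRNA, -1.38, was -0.63 without control CLM replicate 1, and that of SELE with SIK3 siRNA, 1.25, was 0.62 without SIK3 30 min replicate 2. Both time points of an arm share that arm's unstimulated libraries. Among all genes tested, 3.65% were called higher at 4 h with SIK3 siRNA and 5.53% with control siRNA.

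Between the siRNAs, SELE was lower with SIK3 siRNA at every time. Without TNF it averaged 0.358 ± 0.0256 CPM with SIK3 siRNA and 2.08 ± 0.254 CPM with control siRNA (SD, n = 2 each). The log2 difference was -2.49 ± 0.386 (approximate SE, edgeR adjusted p = 7.42e-04). At 30 min the means were 0.868 ± 0.436 CPM with SIK3 siRNA and 8.46 ± 0.756 CPM with control siRNA, a log2 difference of -3.27 ± 0.282 (edgeR adjusted p = 2.13e-05). At 4 h they were 5.95 ± 1.16 CPM with SIK3 siRNA and 199.5 ± 35.9 CPM with control siRNA, a 33.6-fold lower level (log2 difference -5.07 ± 0.242, edgeR adjusted p = 1.54e-06). Taken within replicate 1 and replicate 2 separately, control siRNA exceeded SIK3 siRNA by 33.2 and 33.95 times at 4 h. These SELE calls stood when each library was left out in turn, while the 30 min difference grew to -3.92 without SIK3 30 min replicate 2. The 4 h difference rests on the SIK3 4 h libraries with the high no-feature share, whose part in it was not tested. It also rests on the control 4 h libraries, whose induction was used to choose the 3 genes. The 4 h tests of all 3 are therefore not independent of the choice. Of all genes tested, 19.8% were called lower without TNF, 19.6% at 30 min and 19.9% at 4 h, so a lower call is no rare result here.

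VCAM1 was lower with SIK3 siRNA at 4 h, at 0.960 ± 0.513 CPM with SIK3 siRNA and 16.7 ± 4.72 CPM with control siRNA (SD, n = 2 each). The log2 difference was -4.08 ± 0.374 (approximate SE, edgeR adjusted p = 3.73e-05). Control exceeded SIK3 siRNA by 33.5 times in replicate 1 and 10.1 times in replicate 2. Without SIK3 4 h replicate 2 the log2 difference was -4.80. Summed over replicates, 33 counts with SIK3 siRNA against 499 with control siRNA gave a depth-scaled ratio of 0.0580 (95% interval 0.0395 to 0.0825, counting error only). Without TNF the sums were 6 counts with SIK3 siRNA against 24 with control siRNA, a ratio of 0.214 (0.0715 to 0.537) and a log2 difference of -2.14 ± 0.641 (edgeR adjusted p = 0.0247). That call was lost without control CLM replicate 1 (edgeR log2 difference -1.42, adjusted p = 0.234), without SIK3 CLM replicate 1 (-1.79, 0.161) and without SIK3 CLM replicate 2 (-2.44, 0.0570). At 30 min 2 counts with SIK3 siRNA against 10 with control siRNA gave a ratio of 0.184 (0.0196 to 0.865), and the test did not pass (edgeR adjusted p = 0.0834).

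ICAM1 was lower with SIK3 siRNA at 4 h. It averaged 1130 ± 267 CPM with SIK3 siRNA and 2655 ± 365 CPM with control siRNA (SD, n = 2 each). The level was 2.35-fold lower (log2 difference -1.23 ± 0.224, approximate SE, edgeR adjusted p = 0.00194). Without TNF the means were 366 ± 54.7 CPM with SIK3 siRNA and 388 ± 51.6 CPM with control siRNA, a log2 difference of -0.08 with a 95% interval of -0.58 to 0.41 (edgeR adjusted p = 0.808). At 30 min the log2 difference was -0.38 (95% interval -0.88 to 0.11, edgeR adjusted p = 0.207). When libraries were paired by replicate (the replicate block), the 30 min difference kept its size and passed the test (-0.38, edgeR adjusted p = 1.78e-06). Control siRNA exceeded SIK3 siRNA at 30 min by 1.28 times in replicate 1 and 1.32 times in replicate 2. ICAM1 was higher in replicate 2 than in replicate 1 in all 6 conditions.

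**Figure D3:**
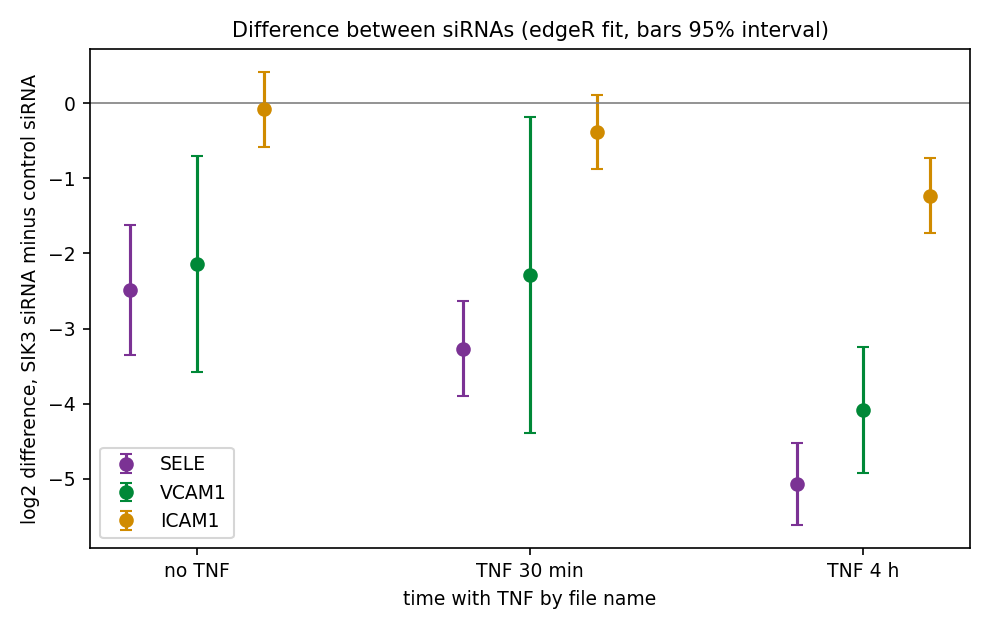
Log2 difference in SELE, VCAM1 and ICAM1 mRNA, SIK3 siRNA minus control siRNA, without TNF and at TNF 30 min and 4 h. Points show the edgeR fit and bars the approximate 95% interval. The 4 h points are the lowest for each gene, at -5.07, -4.08 and -1.23, and the ICAM1 intervals without TNF and at 30 min include 0. This fit does not pair the replicates, and with the replicate block the ICAM1 difference at 30 min passed the edgeR test.

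Whether the TNF response itself differed between the siRNAs was tested as an interaction, the log2 TNF difference with SIK3 siRNA minus that with control siRNA. At 4 h it was -2.58 ± 0.530 for SELE (approximate SE, edgeR adjusted p = 0.0495), and SELE was among 0.845% of all genes called lower. That call sits at the threshold: with the replicate block it held (-2.57, edgeR adjusted p = 0.00321), and it was lost in each of the 8 fits that left out 1 of the 8 libraries involved (adjusted p 0.0642 to 0.318). For ICAM1 the 4 h interaction was -1.15 ± 0.313 (edgeR adjusted p = 0.143) and passed with the replicate block (-1.16, adjusted p = 8.47e-10). For VCAM1 it was -1.94 ± 0.883 and did not pass in either fit (edgeR adjusted p = 0.466 without and 0.235 with the block). At 30 min none of the 3 genes passed (edgeR adjusted p = 1 for each), where edgeR called 0 of 16695 genes, 317 had an unadjusted p under 0.05 and DESeq2 called 6. The control 4 h libraries that showed the induction used to choose the genes enter both the 4 h siRNA difference and the 4 h interaction.

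Read by their titles, the same 12 libraries change place. SELE would then stand at 8.996 and 7.93 CPM unstimulated, 0.376 and 0.340 CPM at 30 min and 6.77 and 5.13 CPM at 4 h with SIK3 siRNA. With control siRNA it would stand at 1.90 and 2.26 CPM unstimulated, 225 and 174 CPM at 30 min, and 0.560 and 1.18 CPM at 4 h. ICAM1 and VCAM1 would likewise peak at 30 min with control siRNA, at 2397 and 2913 CPM and at 20.0 and 13.4 CPM. Which naming is right was not tested on these genes, and every direction above belongs to the library names.

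SELE overlaps C1orf112, a gene on the opposite strand with which it shares no exon, and the strand setting of the counting is not given in the sources used here. C1orf112 had 103 to 597 counts per library and was itself lower with SIK3 siRNA at 4 h, at 9.13 CPM with SIK3 siRNA and 33.9 CPM with control siRNA (edgeR log2 difference -1.89, adjusted p = 6.52e-06). SELE also shares 266 exon bases with AL021940.1, which had 0 counts in every library. ICAM1 shares 815 exon bases with the antisense AC011511.5, which had 1490 counts over all libraries against 164998 for ICAM1. AC011511.5 was lower with SIK3 siRNA at 4 h too, at 10.7 CPM with SIK3 siRNA and 23.1 CPM with control siRNA (edgeR log2 difference -1.11, adjusted p = 0.00200). Other genes beside them had few counts: SELP, the platelet selectin gene beside SELE, had at most 1 count, and ICAM4, the erythroid family member next to ICAM1, had 10 to 66. ICAM4 was lower with SIK3 siRNA at 4 h, at 2.42 CPM with SIK3 siRNA and 4.06 CPM with control siRNA (edgeR adjusted p = 0.0325). ICAM5 and ICAM3, also beside ICAM1, had positive log2 differences of 0.31 and 0.69 that did not pass (edgeR adjusted p = 0.333 and 0.0572). From unstimulated to TNF 4 h with control siRNA, ICAM4 rose from 0.6885 to 4.06 CPM and ICAM5 from 2.26 to 7.72 CPM (edgeR adjusted p = 3.06e-04 and 0.0023). With SIK3 siRNA edgeR called neither of them at TNF 4 h against unstimulated.

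Other selectins and immunoglobulin-family adhesion molecules split by direction. Of 30 listed genes 19 were tested. Without TNF 7 rose and 2 fell with SIK3 siRNA, where 18.9% of all genes were called higher and 19.8% lower. At 4 h 2 rose and 8 fell, where 19.6% of all genes were called higher and 19.9% lower. Scaled by library totals the 4 h split was 3 higher and 5 lower and the split without TNF 8 higher and 1 lower. With the replicate block the 4 h counts were 6 higher and 10 lower, and no share of all genes at 4 h is given for that fit. The list's median log2 difference at 4 h was -0.24, against 0.03 over all genes. ALCAM, an immunoglobulin-family receptor that binds CD6 on T cells, averaged 164 ± 17.9 CPM with SIK3 siRNA and 35.1 ± 4.82 CPM with control siRNA without TNF (edgeR log2 difference 2.23, adjusted p = 4.57e-06). At 4 h the genes that fell included F11R, a junctional adhesion molecule (75.1 CPM with SIK3 siRNA and 118.5 with control siRNA), and PVR, the poliovirus receptor read by natural killer cells (127 CPM with SIK3 siRNA and 166.5 with control siRNA). ESAM, an endothelial junction protein, also fell (0.177 CPM with SIK3 siRNA and 1.09 with control siRNA), but it had only 2 to 17 counts per library. Whichever of the 4 h libraries was left out, 3 to 5 genes were called lower.

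Of these adhesion genes, 10 of 19 rose at TNF 4 h with control siRNA (8 scaled by library totals), against a background of 5.53% called higher. ALCAM rose to 192.5 CPM at 4 h, against 35.1 CPM unstimulated, and PVR to 166.5 CPM at 4 h, against 79.6 CPM unstimulated. With SIK3 siRNA edgeR called 0 of 19 at 4 h, where 3.65% of all genes were called higher, and DESeq2 called 0. At an unadjusted p under 0.05 there were 4, and the replicate block gave 7 higher and 2 lower, with no share of all genes given for that fit. The 4 h interaction passed for ALCAM (-2.24), PVR (-0.92) and F11R (-0.76), with edgeR adjusted p = 0.00201, 0.0175 and 0.0191, where 0.845% of all genes were called lower. At 4 h itself edgeR did not call ALCAM between the siRNAs (log2 difference -0.01, adjusted p = 0.955). Without TNF its log2 difference was 2.23, higher with SIK3 siRNA. With the replicate block the 4 h interaction passed for 8 of the listed genes, all negative, where the block called 1996 of all 16695 genes, against 261 without it. Whichever library was left out, 4 to 6 genes were called higher with TNF in control siRNA cells and 1 to 2 in the interaction.

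Among the counter-receptors, the integrins and glycan-building enzymes that these receptors meet on a partner cell, 14 of 26 genes were tested. FUT4, a fucosyltransferase of selectin ligand synthesis, fell with SIK3 siRNA at 4 h to 30.5 ± 1.74 CPM, against 46.4 ± 1.92 CPM with control siRNA (SD, n = 2 each, edgeR adjusted p = 0.00126). It was 1 of 3 called at 4 h, with ST3GAL3, a sialyltransferase, and B4GALT1, a galactosyltransferase, all lower, a share of 21.4% against 19.9% of all genes, while the replicate block gave 3 higher and 5 lower and leaving out 1 library gave 1 to 3 lower. ITGA4 and ITGAL, α chains of the leukocyte integrins that bind VCAM1 and ICAM1, had at most 3 and 2 counts in any library. ITGAM, the α chain of Mac-1, had 42 to 74 counts and ITGB2, the β chain of both LFA-1 and Mac-1, had 15 to 68, and neither passed between the siRNAs at 4 h (edgeR adjusted p = 0.940 and 0.208).

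Genes of the route from the TNF receptors to NF-κB were mostly lower with SIK3 siRNA where they were called. All 22 listed genes were tested, and 3 rose and 9 fell without TNF, 2 rose and 10 fell at 30 min, and 1 rose and 11 fell at 4 h. Of all genes 19.8%, 19.6% and 19.9% were called lower at these times, and 18.9%, 18.2% and 19.6% higher. The list's median log2 difference was -0.27 without TNF and -0.41 at 4 h, against 0.01 and 0.03 over all genes. At 4 h TNFRSF1B, a TNF receptor, averaged 27.2 ± 2.96 CPM with SIK3 siRNA and 76.9 ± 0.132 CPM with control siRNA (SD, n = 2 each, edgeR log2 difference -1.50, adjusted p = 8.37e-05). TNFAIP3, which encodes the feedback inhibitor A20, averaged 115 ± 14.0 CPM with SIK3 siRNA and 276 ± 7.49 CPM with control siRNA (edgeR adjusted p = 2.45e-04). NFKBIE, an IκB inhibitor, and BIRC3, a ubiquitin ligase of the receptor complex, were also lower. With TNF, 10 of 22 rose at 4 h with SIK3 siRNA and 11 of 22 with control siRNA, where 3.65% and 5.53% of all genes were called higher. NFKBIA, the classical IκB, rose to 560 CPM at 4 h with SIK3 siRNA, against 156 CPM unstimulated, and to 941 CPM at 4 h with control siRNA, against 216 CPM unstimulated. The interaction at 4 h called 0 of 22 by edgeR, where 0.719% of all genes were called higher and 0.845% lower, and 2 by DESeq2. At an unadjusted p under 0.05 there were 4. The replicate block gave 1 higher and 9 lower, where it called 1996 of all 16695 genes in this interaction, against 261 without it. Whichever library of the SIK3 siRNA comparison was left out, 5 genes were called higher at 4 h.

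Of 18 other transcription factors known at these promoters 17 were tested, and 5 rose and 5 fell with SIK3 siRNA at 4 h, where 19.6% of all genes were called higher and 19.9% lower. IRF1, which acts beside NF-κB at the VCAM1 promoter, averaged 272 ± 20.9 CPM with SIK3 siRNA and 799 ± 9.05 CPM with control siRNA at 4 h (SD, n = 2 each, edgeR log2 difference -1.55, adjusted p = 4.97e-06). ATF2, a factor of the SELE promoter, was higher, at 105 ± 2.83 CPM with SIK3 siRNA and 39.7 ± 2.44 CPM with control siRNA (edgeR adjusted p = 1.08e-05). GATA6 was lower at 4 h (5.91 CPM with SIK3 siRNA and 19.8 CPM with control siRNA) and had a negative 4 h interaction of -2.61 (edgeR adjusted p = 0.00658). FOS had a positive one of 1.96 (edgeR adjusted p = 0.00707), where 0.719% of all genes were called higher.

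Transcripts of sheddases, which cut adhesion molecules from the surface, and of cytoplasmic partners of the receptors were called at 4 h in shares of 41.7% and 50%, against 39.5% of all genes. Of 12 sheddase genes and their regulators 3 rose and 2 fell at 4 h, where 19.6% of all genes were called higher and 19.9% lower, and 3 rose and 6 fell with the replicate block. ADAM10 averaged 106 ± 1.97 CPM with SIK3 siRNA and 382 ± 31.1 CPM with control siRNA at 4 h (SD, n = 2 each, edgeR log2 difference -1.85, adjusted p = 8.79e-06), and a like difference of -2.00 was present without TNF. MMP14, a membrane metalloproteinase, was higher, at 21.7 ± 0.324 CPM with SIK3 siRNA and 6.76 ± 0.0557 CPM with control siRNA. Of 12 actin-linking partners of the ICAM1 and VCAM1 tails 1 rose and 5 fell at 4 h, against the same background. RDX (radixin) rose to 440 CPM with SIK3 siRNA, against 221 CPM with control siRNA, and ACTN4 (an α-actinin) fell to 1921 CPM with SIK3 siRNA, against 3074 CPM with control siRNA.

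**Figure D4:**
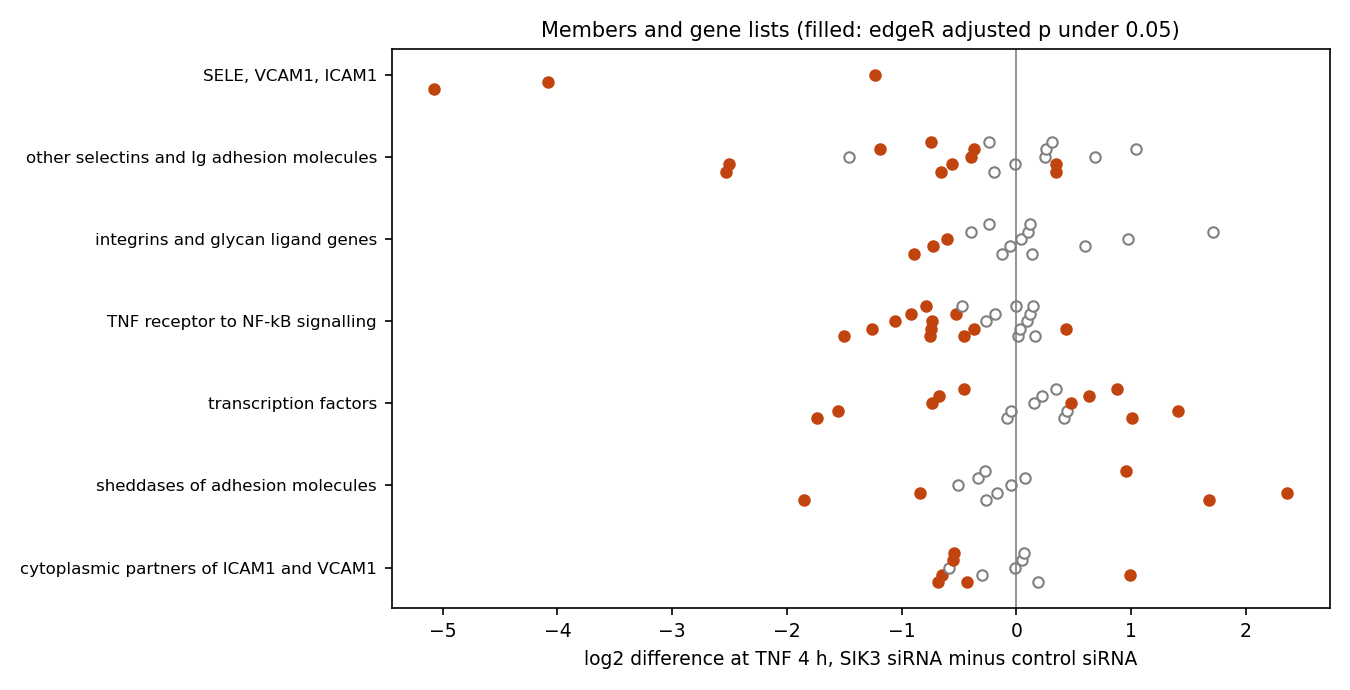
Log2 difference at TNF 4 h, SIK3 siRNA minus control siRNA, for SELE, VCAM1 and ICAM1 and for each tested gene of 6 lists (filled points, edgeR adjusted p under 0.05). SELE at -5.07 and VCAM1 at -4.08 lie below every listed gene, while ICAM1 at -1.23 lies within their range. The 3 receptors were chosen for induction by TNF, seen in the control 4 h libraries, so this order is not independent of the choice. VCAM1 had only 9 and 24 counts with SIK3 siRNA. The lowest listed gene is ESAM at -2.53, which had only 2 to 17 counts per library.

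The patterns of the 3 receptors over the 12 libraries were alike but not the same. Pearson's r of log2 CPM was 0.922 for VCAM1 with ICAM1, 0.897 for SELE with VCAM1 and 0.845 for SELE with ICAM1, over libraries that share conditions, replicate numbers and depth. The genes nearest to SELE were DLG1 (r = 0.983), TIFA (0.980), IRF1 (0.976), ZBTB10 (0.974) and DIP2C (0.974). Those nearest to VCAM1 were RASSF4 (0.994), FAS (0.988), SLC37A1 (0.984), CCL5 (0.980) and NBPF1 (0.979). Those nearest to ICAM1 were TNFRSF9 (0.989), DENND3 (0.986), SLCO5A1 (0.985), FMNL3 (0.984) and ZC3H12C (0.983). No gene was shared among the 3 sets of 5, and after the mean of each replicate number was subtracted 2 of 5 remained for SELE, 3 for VCAM1 and 1 for ICAM1.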

How the data were processed

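RNA from PANC-1 cells was sequenced after a ScriptSeq library preparation, per the labels' protocols. The authors deposited raw counts of reads per gene, 1 table per library, and the submitters' processing notes name STAR 2.05b, edgeR and GRCh38. The annotation release and strand setting are not given in the sources used here. The 4 summary entries of unassigned reads were kept out of library sizes and tests, and gave the shares of no-feature and multimapping reads. Gene names and exon lengths came from GENCODE 29.

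Counts were tested with edgeR 4.0.16 (R 4.3.3) by quasi-likelihood, with TMM scaling, the default low-count filter at 10 counts and 1 fit over all 12 libraries with group as the only term. P-values were adjusted by Benjamini-Hochberg over all 16695 genes and called under 0.05. The p-values rest on the spread between replicates within groups, estimated over all 6 groups and partly shared across genes. In the main fit that spread includes shifts common to a replicate number. Values labelled approximate SE do not combine across comparisons as standard errors of a fit should. For VCAM1 the value was 0.775 in the 30 min interaction, below the 0.938 of the 30 min siRNA difference within it. The 95% intervals of log2 differences share this limit, and both are rough guides only. CPM is TMM-scaled. The script was tested on simulated data. Libraries with the same replicate number deviated together (correlations of 0.35 to 0.53 over 15 pairs of groups), so the numbers pair the libraries. The main fit, its intervals and its p-values leave that pairing out. A fit with the replicate number as a block was an alternative. It called more genes in general, and only for the 4 h interaction do its counts of listed genes stand beside its count over all genes. Its other list counts have no such background and are not read as results about the lists. Others were DESeq2 1.42.0, its size factors, library totals, other filters, fewer libraries and conditions from the titles.

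Intervals of VCAM1 ratios cover counting error only, and 3 counts in a library are 0.132 to 0.222 CPM. From each gene list the text names up to 4 called genes with the smallest p per comparison, and for each receptor the 5 genes with the highest r among those of at least 1 CPM. PECAM1, VWF, TEK, EMCN, EGFL7, PTPRC, ITGA4, ITGAL, ITGAM, ITGB2 and the overlapping or neighbouring genes were named outside that rule, after their values were seen. The receptors and lists were chosen with earlier results of these data known.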

Additional observations from a re-analysis of the deposited data

Results flagged for a closer look

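The difference between siRNAs in the 4 h TNF response of SELE was picked out because a test of the difference itself passed, with an interaction of -2.58 on the log2 scale (edgeR adjusted p = 0.0495). The control 4 h libraries whose induction was used to choose SELE enter this test, so it is not independent of the choice. The call was lost in all 8 fits that left out 1 library (adjusted p 0.0642 to 0.318). The replicate block, which those 8 fits do not use, kept the call (-2.57, edgeR adjusted p = 0.00321). Both SIK3 siRNA libraries had 6.77 and 5.13 CPM at 4 h, and both control libraries 225 and 174 CPM. The 2 SIK3 4 h libraries also held the highest shares of no-feature reads, 16.5% and 17.1%, and the part of that in the result was not tested.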

How the results depend on the processing

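Conditions taken from the titles changed the results most. With them the siRNA difference without TNF was 2.03 for SELE and -1.38 for VCAM1, at 30 min -6.68 for VCAM1 and -2.86 for ICAM1, and at 4 h 2.75 for SELE, 4.11 for VCAM1 and 2.051 for ICAM1, all log2. The 30 min interactions became -11.1 for SELE, -5.30 for VCAM1 and -2.73 for ICAM1, and the 4 h interactions 0.73, 5.49 and 2.17 for the same genes. The TNF differences then also turned: at 30 min 4.54 (VCAM1) and 2.78 (ICAM1) with control siRNA and -4.52 (SELE) and 0.041 (ICAM1) with SIK3 siRNA, at 4 h against unstimulated -1.24 (SELE), -3.66 (VCAM1) and -0.51 (ICAM1) with control siRNA and -0.51 for SELE with SIK3 siRNA, and at 4 h against 30 min -7.83 (SELE), -8.20 (VCAM1) and -3.28 (ICAM1) with control siRNA. Genes called numbered 49 without TNF, 1182 at 4 h, 4760 for the 30 min and 576 for the 4 h interaction.

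The replicate block called 9746 genes without TNF, against 6449, 9771 at 30 min, against 6314, 44 for the 30 min and 1996, against 261, for the 4 h interaction. It brought the calls of ICAM1 at 30 min (-0.38) and in the 4 h interaction (-1.16) and changed no other call of the 3 receptors. Without the low-count filter 18 genes passed in the 30 min and 425 in the 4 h interaction, and ICAM1 passed at 30 min (-0.38) and in the 4 h interaction (-1.15, DESeq2 -1.19). DESeq2 called 6 genes in the 30 min interaction. Fitting only the libraries compared gave 96 genes in the 4 h interaction and took the SELE call (-2.63, adjusted p = 0.0557).

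Leaving out 1 library gave 4835 to 5262 genes without TNF, 4668 to 4943 at 30 min, 4766 to 5237 at 4 h and 61 to 116 in the 4 h interaction. The SELE 4 h interaction ran from -2.81 to -2.38 and VCAM1 without TNF from -2.57 to -1.42. ICAM1 without TNF ran from -0.23 to 0.047, at 30 min against unstimulated with control siRNA from -0.37 to 0.10, and the VCAM1 30 min interaction from -0.89 to 0.26, so these signs rest on single libraries. The causes were not tested. Scaling by library totals moved the median log2 difference of all genes at 4 h to 0.13, against 0.03, and changed no call of the receptors. Leaving out both SIK3 4 h libraries, chosen after seeing the data, changed no call without TNF or at 30 min. VCAM1 depth limits its values, with 1 to 24 counts outside the control 4 h libraries.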
